A study of Mus musculus with 24 samples.

Results

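The arrays described here are the 5 of a mouse pancreas series that carried a high signal for Dbp and other circadian clock genes, set against the other 11 arrays of the same 4 treatment groups. They were picked from 24 arrays by their measured Dbp and clock gene signals and not by any label. The 5 high arrays were replicate 4 of PAE 1X, replicates 2 and 3 of PAE 3X, replicate 4 of water and replicate 4 of sitagliptin. Values of the high arrays are always given in that order. A further 8 arrays, of AFFB and PAE 0.1X, held no such array and were not part of the comparison.

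Pancreas RNA came from male C57BL/6J mice, an inbred strain that grows obese on a fatty diet, bought at 3 weeks of age and singly housed on a reversed light/dark cycle of 12 h each. All 6 groups ate a high-fat diet with 60% fat, for 12 weeks per the study's design text, and were given their treatment in place of plain drinking water. The groups used here were PAE 1X, at 9.0 mg per kg body weight per day, PAE 3X, at 18.9 mg per kg per day, sitagliptin, at 150 mg per L, and water as the control. PAE is the phenolic extract of an alcohol-free fermented blackberry and blueberry beverage (AFFB), and its dose is expressed as anthocyanins. The top dose is called 3X by the titles, whereas the treatment protocol calls it 2X. Sitagliptin inhibits the incretin-degrading enzyme DPP-IV. AFFB, at 8.4 mg per kg per day, and PAE 0.1X, at 1.1 mg per kg per day, made up the remaining 8 arrays. No hour of collection was given in the sources used here. Nothing in the labels says whether the 4 arrays of a group came from 4 different mice, and p-values therefore speak of the spread among samples, which may be technical. Since the sets were split on measured values, a p-value here describes these 16 arrays and not a treatment.

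The circadian clock is a transcriptional feedback loop found in nearly every mammalian cell. CLOCK and its partner BMAL1, encoded by Arntl, bind E-box sequences and switch on the Per and Cry genes, whose proteins then block them, as well as Nr1d1, Nr1d2 and Dbp. The REV-ERB receptors, encoded by Nr1d1 and Nr1d2, in turn repress Arntl, while DBP, TEF and HLF, which are PAR bZIP factors, carry the rhythm to output genes through D-box sequences. In mouse tissues Dbp is known for a wide swing over the day, and acinar cells, which make digestive enzymes and form most of the pancreas, have a clock of their own. Heat shock genes, switched on by HSF1 through heat shock elements, are known to cycle in mouse liver with body temperature, whereas Cirbp is known to rise in the cold.

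Promoter sequences are shown for 3 clock genes that were high on the 5 arrays and for 2 heat shock genes that were low on them, because these carry the recognition letters of the factors named above. The windows are from RefSeq on GRCm38.p6, run from 250 bases before the gene's start to 50 after it, and read 5′ to 3′ on the gene's own strand. Capitals mark the E-box CACGTG, the D-box TTATGTAA or the heat shock element GAANNTTCNNGAA, each found by its letters on either strand (N is any base).
Ciart (chr3:95882179-95882478, minus strand): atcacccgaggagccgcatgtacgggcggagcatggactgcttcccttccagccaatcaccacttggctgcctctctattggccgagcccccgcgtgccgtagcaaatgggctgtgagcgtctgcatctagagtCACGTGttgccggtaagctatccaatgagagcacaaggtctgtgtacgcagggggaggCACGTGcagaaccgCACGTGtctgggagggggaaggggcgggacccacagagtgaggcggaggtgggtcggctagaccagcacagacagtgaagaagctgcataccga
Tef (chr15:81802423-81802722, plus strand): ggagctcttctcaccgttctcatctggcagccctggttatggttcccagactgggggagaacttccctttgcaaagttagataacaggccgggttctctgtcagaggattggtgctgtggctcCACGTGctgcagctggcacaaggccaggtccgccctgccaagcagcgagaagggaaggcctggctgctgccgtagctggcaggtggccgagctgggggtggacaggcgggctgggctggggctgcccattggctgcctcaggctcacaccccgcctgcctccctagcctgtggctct
Per3 (chr4:151044616-151044915, minus strand): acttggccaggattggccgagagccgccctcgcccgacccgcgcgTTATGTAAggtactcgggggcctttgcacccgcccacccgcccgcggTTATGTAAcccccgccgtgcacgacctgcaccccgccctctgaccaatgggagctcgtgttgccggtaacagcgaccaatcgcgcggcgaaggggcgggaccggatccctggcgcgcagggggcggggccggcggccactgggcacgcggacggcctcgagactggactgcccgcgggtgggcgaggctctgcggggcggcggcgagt
Hsph1 (chr5:149636287-149636586, minus strand): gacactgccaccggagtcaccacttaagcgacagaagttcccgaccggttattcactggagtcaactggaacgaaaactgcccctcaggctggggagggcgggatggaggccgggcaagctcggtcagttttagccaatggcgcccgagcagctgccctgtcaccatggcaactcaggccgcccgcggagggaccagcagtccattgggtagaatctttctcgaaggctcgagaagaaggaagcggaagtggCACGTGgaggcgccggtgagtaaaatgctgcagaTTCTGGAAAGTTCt
Chordc1 (chr9:18292017-18292316, plus strand): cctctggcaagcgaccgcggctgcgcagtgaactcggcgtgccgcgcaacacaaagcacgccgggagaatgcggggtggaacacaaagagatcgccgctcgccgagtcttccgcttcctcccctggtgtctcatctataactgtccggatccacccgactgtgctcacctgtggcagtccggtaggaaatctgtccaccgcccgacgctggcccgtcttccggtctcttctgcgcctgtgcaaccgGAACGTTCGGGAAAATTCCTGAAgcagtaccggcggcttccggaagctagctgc

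The Ciart window held 3 E-boxes and the Tef window 1, and a further Tef window held 1 as well. The Per3 window held 2 copies of the D-box. The E-box was present in 7.15% of all 32851 promoter windows and the D-box, searched as TTATGTAA or TTACGTAA, in 1.06%. Of the 10 genes of the negative arm of the clock that were listed, 8 matched a window and 4 of those held an E-box. The windows of Dbp, Nr1d1, Nr1d2 and Usp2 held none of these letters. The Chordc1 window held 3 overlapping heat shock elements, and the Hsph1 window held 1 together with an E-box. Heat shock elements of this form were in 0.603% of all windows and, by gene, in 0.662%. Of the 15 heat shock genes that matched a window, 4 had one. Among the 4, Hspe1 and Hspd1 have overlapping windows on opposite strands and share the same stretch of letters. A match is a description of the letters only.

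Dbp, a PAR bZIP factor and the main marker of the set, had a log2 signal of 11.43, 11.03, 11.12, 11.02 and 10.98 on the high arrays. On the other 11 arrays it was 5.70 at the lowest, 6.81 at the median and 8.41 at the highest. The sets did not overlap, and the lowest high array was 5.94-fold above the highest other array on the linear scale. Just outside the set were PAE 1X replicate 2 at 8.41, sitagliptin replicate 2 at 8.40 and water replicate 1 at 7.63. The arrays of AFFB and PAE 0.1X lay between 5.63 and 7.53. The log2 difference, high minus other with treatment as a covariate, was 4.39 (SE 0.42).

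**Figure D1:**
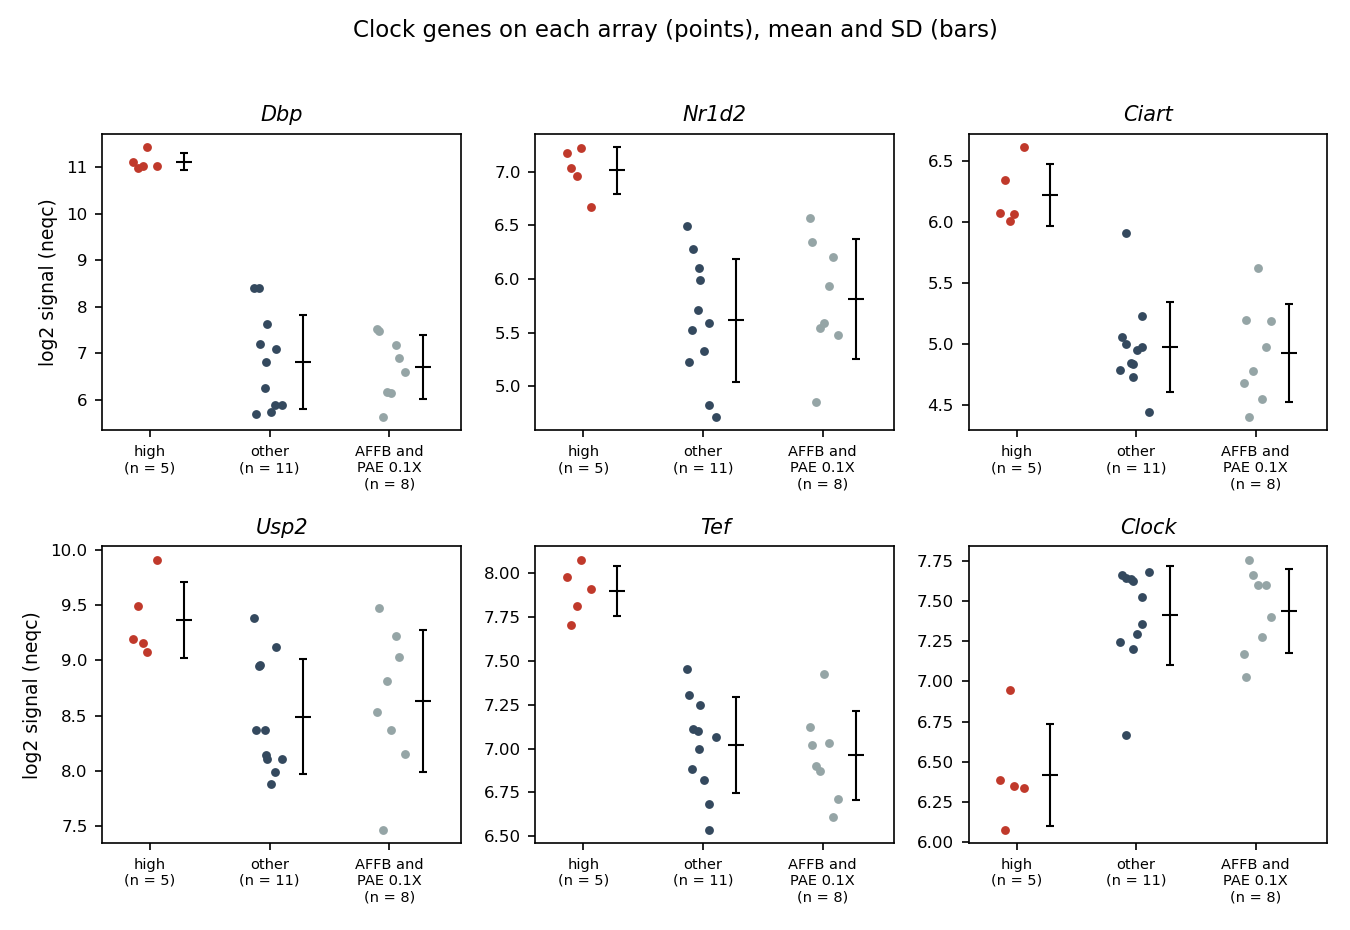
Log2 signal of 6 clock genes on each array (points), with the mean and SD of each set (bars), for the 5 high arrays, the 11 other arrays of the same groups and the 8 arrays of AFFB and PAE 0.1X. Dbp of the high arrays sits at 10.98 to 11.43 and on all 19 remaining arrays at 8.41 or lower, while Clock is low on the high arrays.

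Because these genes chose the arrays, their values are a description with no test. Of 22 clock genes listed, 20 had a probe and 14 had a probe detected on at least 4 of the 24 arrays. These 14 had 20 such probes, of which 17 were higher and 3 lower on the high arrays. For 5 genes, by 6 probes, the high and other arrays did not overlap. These counts carry no weight as support, since the arrays were selected on such values.

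Among the PAR bZIP factors, Tef, a relative of Dbp, stood at 8.08, 7.91, 7.98, 7.81 and 7.71 on the high arrays and between 6.54 and 7.46 on the other arrays, with a median of 7.07. Its difference was 0.89 (SE 0.14) and no array of either set crossed into the other. Hlf, the remaining member with a kept probe, was near the detection limit, with 2 of 5 high arrays and 2 of 11 other arrays detected and a difference of 0.16 (SE 0.12). Nfil3, which opposes these factors at D-boxes, was not measured by any probe named for it here.

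Of the repressors, Nr1d2 (REV-ERB beta) was 7.22, 6.67, 7.18, 6.96 and 7.03 on the high arrays, against 4.71 to 6.50 on the other arrays with a median of 5.59, a difference of 1.39 (SE 0.25). Ciart, an inhibitor of CLOCK and BMAL1, was 6.06, 6.61, 6.08, 6.01 and 6.35 on the high arrays, against 4.44 to 5.91 on the other arrays with a median of 4.95. Its 3 probes gave differences of 1.24, 1.24 and 0.98. By the probes named, neither gene overlapped between the sets. Nr1d1 (REV-ERB alpha) was detected on 5 of 5 high arrays, at 5.46, 5.12, 5.44, 5.57 and 4.77, and on 0 of 11 other arrays. It was thus at least 1.55-fold higher on the high arrays, the dim side being taken at the lowest detected signal of each array.

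The Per genes, whose proteins form the classical inhibitor complex with CRY, did not move as one. Per3 was detected on 4 of 5 high arrays and 1 of 11 other arrays, with a difference of 0.53 (SE 0.10). Per1 gave 0.44 (SE 0.24) and its sets overlapped, at 7.01, 7.67, 7.16, 7.20 and 7.49 on the high arrays and 5.60 to 7.49 on the other arrays. Per2 was lower, by -0.45 (SE 0.13) and -0.46 in its 2 probes. It stood at 8.24, 8.22, 8.02, 7.87 and 7.98 on the high arrays and between 8.10 and 9.06 on the other arrays. Bhlhe40, a repressor also known as DEC1, differed by 0.59 (SE 0.25) and Cry2 by 0.18 (SE 0.13), both with overlap.

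Of the activators, Clock was low on the high arrays, at 6.35, 6.34, 6.39, 6.94 and 6.08, against 6.66 to 7.68 on the other arrays with a median of 7.52, a difference of -0.99 (SE 0.16). The sets overlapped through a single array on each side, water replicate 4 at 6.94 and the lowest other array at 6.66. Rora, which competes with the REV-ERB receptors for their DNA element, gave 0.58 (SE 0.17), with sitagliptin replicate 4 at 7.68 and the other 4 high arrays between 6.60 and 6.90. Arntl was detected on 2 of the 24 arrays and on 0 of the 5 high arrays, so no level can be given. Usp2, a ubiquitin-specific protease with a strong daily rhythm, was 9.08, 9.91, 9.19, 9.16 and 9.49 on the high arrays and 7.88 to 9.39 on the other arrays. Its difference was 0.92 (SE 0.24), with overlap.

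**Figure D2:**
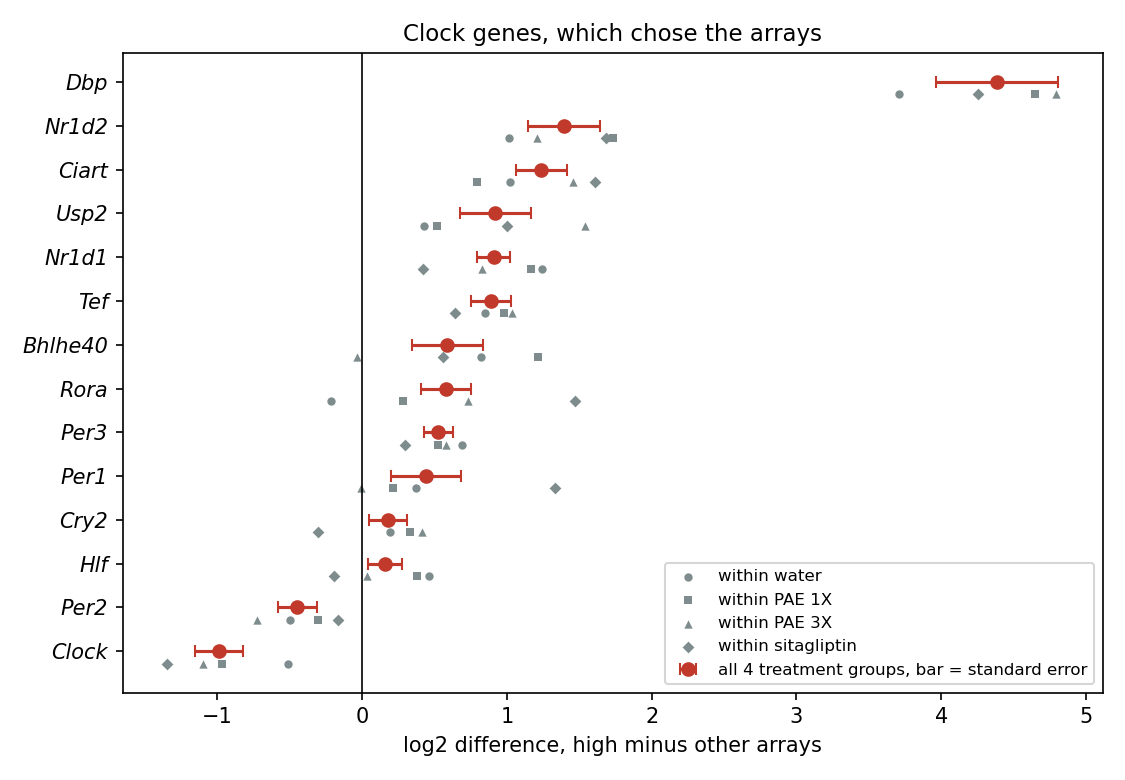
Log2 difference, high minus other arrays, of the 14 clock genes with a kept probe (red points, bars are standard errors, treatment as a covariate), and the same difference within each of the 4 treatment groups (grey symbols). Dbp at 4.39 stands far to the right and Clock at -0.99 and Per2 at -0.45 lie to the left of 0.

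Clock genes were also followed against Dbp among the 19 arrays outside the high set. These arrays were left over by the same Dbp and clock signals, so the slopes of clock genes are a description with no test. The slope is the change in log2 signal per log2 unit of Dbp, with treatment as a covariate. Nr1d2 had a slope of 0.48 (SE 0.10), Usp2 of 0.42 (SE 0.12) and Clock of -0.25 (SE 0.06). Tef had a slope of 0.04 (SE 0.08) and Ciart of 0.11 (SE 0.10). No probe of any gene passed an adjusted p of 0.05 among these 19 arrays (0%), with 887 of 15327 (5.79%) at an unadjusted p under 0.05. In the 8 arrays of AFFB and PAE 0.1X alone, slopes were 0.72 for Nr1d2, 0.66 for Usp2 and -0.33 for Clock, with 0 probes passing (0%) and 553 (3.61%) at an unadjusted p under 0.05. On simulated data with slopes of 0.25 and 0.5 the fit of 8 arrays recovered none of the changed probes. Its count of passing probes therefore carries no information on slopes of that size, and larger ones were not simulated. The fit of 19 arrays recovered 45.6% of changed probes at a slope of 0.25 and 92.4% at 0.5.

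Before the other genes, the arrays themselves need a word. The high arrays had a detected share of 24.8% to 27.5% of probes with a median of 25.8%, against 24.05% to 31.1% with a median of 27.0% on the other arrays (two-sided exact permutation p = 0.122 within treatment groups). Their 95th percentile of raw signal was 203.3 to 279.8 with a median of 223.4, against 226.3 to 313.7 with a median of 275.9 on the other arrays. That difference of -44.5 had a two-sided exact permutation p of 0.0078 over 384 reassignments within treatment groups, or 0.0156 adjusted over the 2 measures. On the first principal component, with 28.4% of the variance, PAE 1X replicate 2 (56.1), AFFB replicate 2 (38.8) and sitagliptin replicate 3 (33.7) stood apart. The high arrays lay from -20.7 to -10.9 there, at the low end, and 3 of the 5 (PAE 3X replicates 2 and 3 and water replicate 4) were below every array outside the set. On the second, with 9.41%, they lay at 10.4 to 21.0, above every other array but PAE 1X replicate 2 at 14.4.

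Outside the clock genes, the 5 high arrays were lower in a group of heat shock genes and differed in many other probes by small amounts. Of 15308 kept probes, 633 (4.14%) passed a limma adjusted p of 0.05, 256 of them higher (1.67%) and 377 lower (2.46%) on the high arrays. They covered 507 genes in 577 probes with a single symbol, and 56 probes had no symbol. Of the passing probes, 21 higher ones were detected on 3 or fewer of the 11 other arrays. A further 15 lower ones were detected on 0 of the 5 high arrays. The median standard error of a difference was 0.13, and 38 passing probes differed by more than 1 log2 unit, 21 higher and 17 lower. Over all 15308 probes, passing or not, 7232 were higher and 8076 lower. The high and other arrays did not overlap in 189 probes (1.23%), 84 with the high arrays above and 105 with them below.

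The count rested heavily on how the arrays were adjusted. With the 95th percentile of signal as a further covariate, a setting chosen after seeing the data, 9 probes passed. Among these were Chordc1, Hsph1, Hspa8 and Ghr, and the other 5 had no symbol. With the array mean of islet genes as a covariate, also chosen after seeing the data, 162 passed. Without PAE 1X replicate 2 and sitagliptin replicate 3 the count was 994, and without PAE 1X replicate 4 it was 138. The part of array brightness in these differences was not tested beyond these fits.

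**Figure D3:**
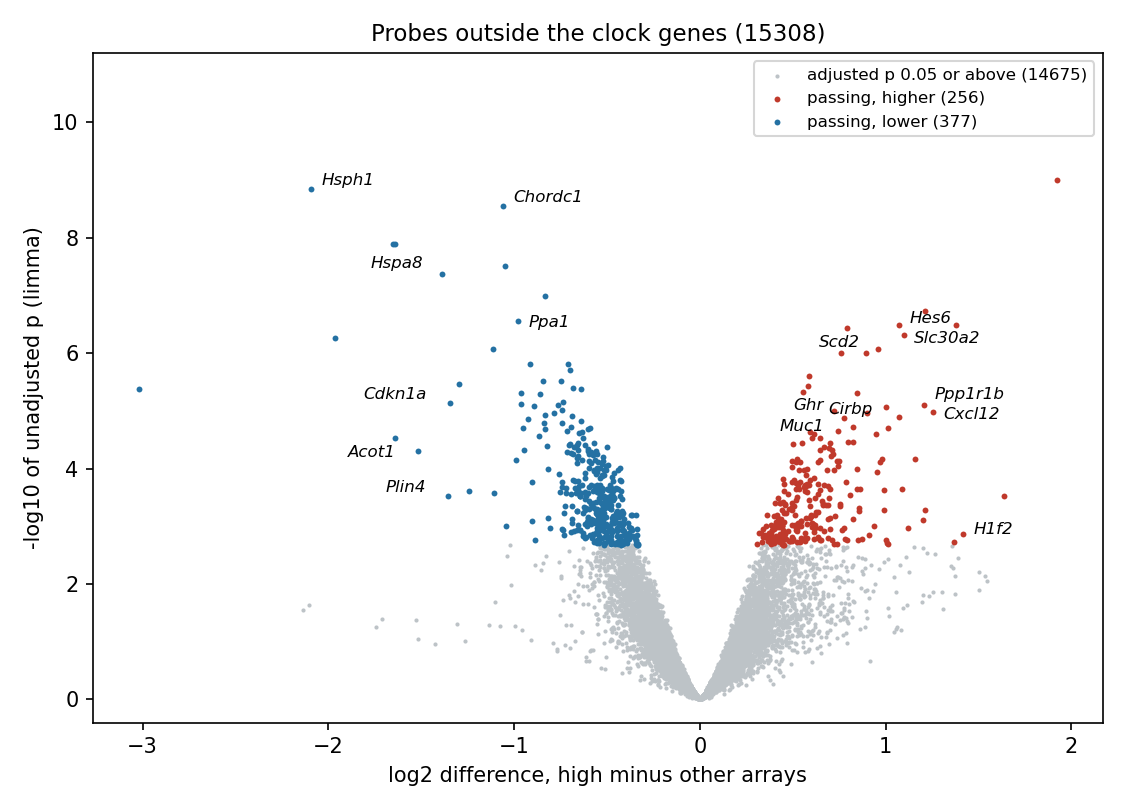
Each of 15308 probes outside the clock genes by its log2 difference, high minus other arrays (x), and by -log10 of its unadjusted limma p (y). Of the 633 passing probes (256 higher in red, 377 lower in blue), Hsph1, Chordc1 and Hspa8 are set apart at the upper left, at -2.09, -1.06 and -1.39.

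Heat shock genes had the lowest median difference of the gene lists followed here. By their brightest probes, all 11 measured members of a list of 18 were lower on the high arrays. Of the 11, 6 passed, against 2.46% of all probes passing in that direction. Hspa1a and Hspa1b were among the listed genes without a kept probe. The median difference of the 11 was -0.60, where the median of all kept probes was -0.01. Under 35 other settings 11 of 11 were lower each time and between 3 and 9 passed. The list and its members were chosen with results of these arrays known, so the count describes them and is no separate evidence.

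Hsph1 encodes HSP110, which helps HSP70 exchange its nucleotide. Its log2 signal was 6.10, 6.75, 6.22, 6.40 and 5.95 on the high arrays, against 6.90 to 8.82 on the other arrays with a median of 8.41. The sets did not overlap, and the difference of -2.09 (SE 0.18, limma adjusted p = 1.11e-05) had the same direction in all 4 treatment groups. The 8 arrays of AFFB and PAE 0.1X, at 8.10 to 9.58, lay above every high array too.

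Hspa8, the constitutive HSP70 of the cytosol, stood at 10.74, 11.27, 10.78, 11.06 and 10.78 on the high arrays and at 11.62 to 12.64 on the other arrays, with a median of 12.38. The difference of -1.39 (SE 0.15, limma adjusted p = 8.22e-05) came with no overlap. Of 2 further probes, the brighter gave -1.64 (adjusted p 0.0056) and the other 0.39 (adjusted p 0.78), and Hspa8 has near-identical processed pseudogenes, so its probes may share signal. Chordc1, a co-chaperone of HSP90, was 6.96, 7.25, 7.28, 7.11 and 6.88 on the high arrays, against 7.62 to 8.41 on the other arrays with a median of 8.09. Its difference was -1.06 (SE 0.10, limma adjusted p = 1.46e-05), and the sets did not overlap. Hsph1, Hspa8 and Chordc1 passed under all 35 other settings.

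Hsp90aa1, the inducible cytosolic HSP90, was 6.00, 5.34, 5.37, 5.84 and 5.81 on the high arrays, against 5.86 to 7.56 with a median of 6.88 on the other arrays. Its difference of -1.05 (SE 0.26) had a limma adjusted p of 0.0332, and one high array overlapped the lowest other arrays. Bag3, a nucleotide exchange factor of HSP70, differed by -0.73 (SE 0.17, adjusted p 0.0253) and the small heat shock protein gene Hspb1 by -0.60 (SE 0.13, adjusted p 0.0155). The members that did not pass were Hspd1 (-0.47) and Hspe1 (-0.25), the mitochondrial chaperonins, Dnajb1 (-0.41), an HSP40, Fkbp4 (-0.36), an immunophilin partner of HSP90, and Ahsa1 (-0.27), its activator. A dimmer probe of Hspd1 gave 0.24 (limma adjusted p 0.66). Stip1 and Ppid, co-chaperones outside the list that were picked after their values were seen, differed by -0.68 (SE 0.10, adjusted p 0.00189) and -0.69 (SE 0.11, adjusted p 0.00352).

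**Figure D4:**
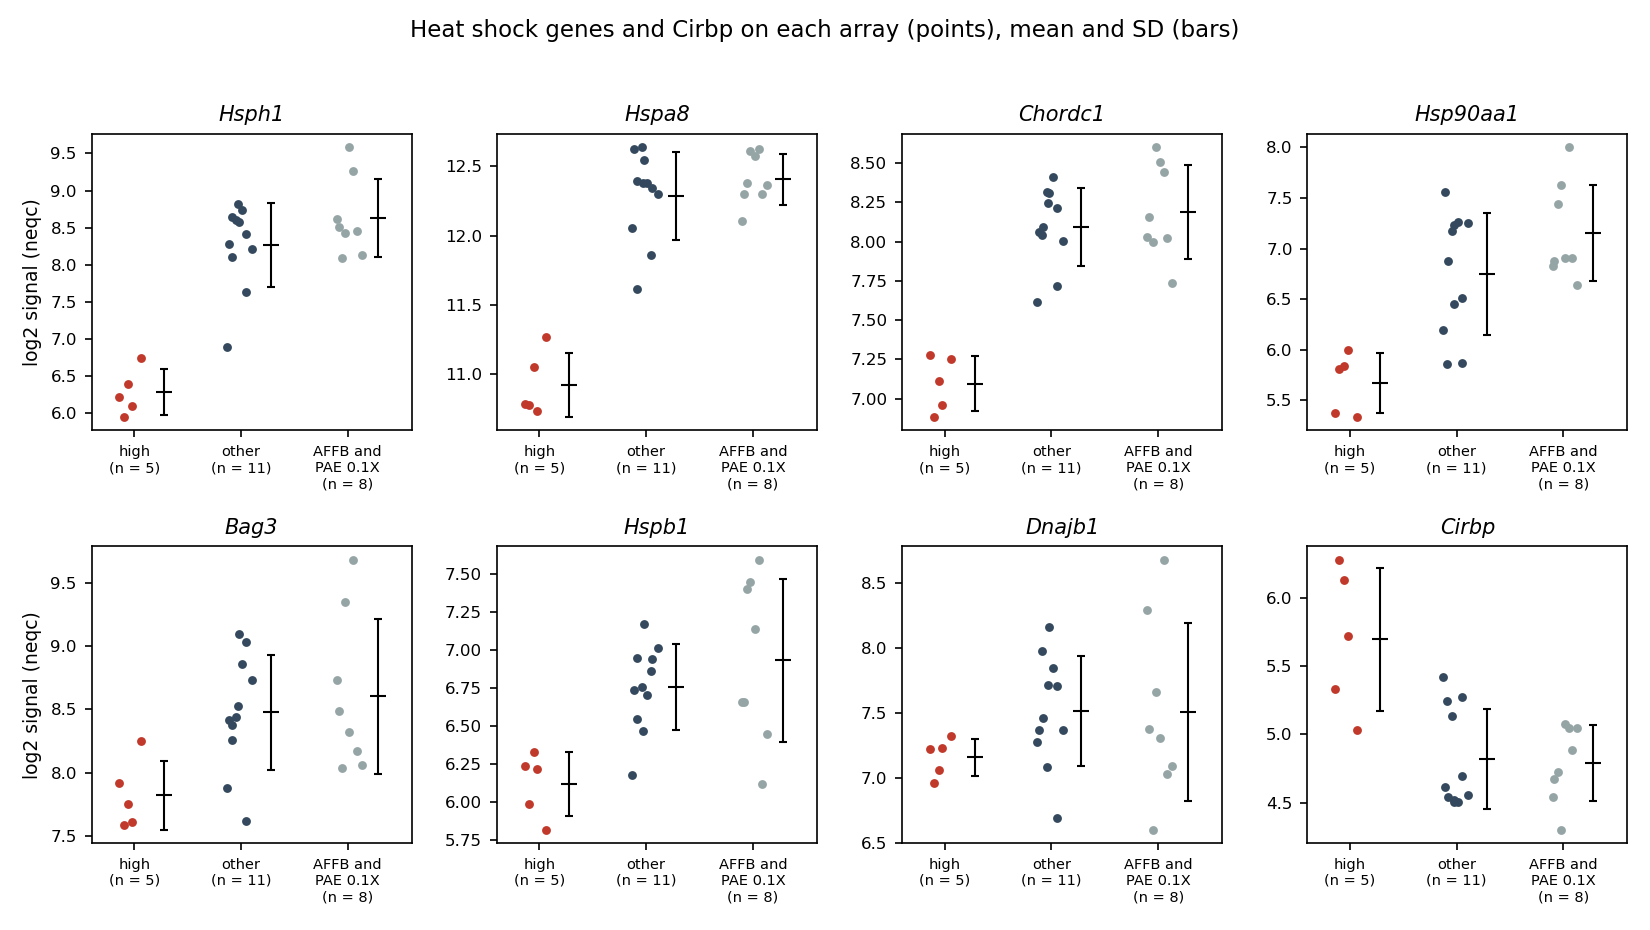
Log2 signal of 7 heat shock genes and Cirbp on each array (points), with the mean and SD of each set (bars). For Hsph1, Hspa8 and Chordc1 the 5 high arrays lie wholly below the other 11 and below the 8 arrays of AFFB and PAE 0.1X, whereas Cirbp averages 5.70 on the high arrays and 4.82 on the other arrays.

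Cirbp, a cold-inducible RNA-binding protein gene, moved the other way. It was 5.72, 5.03, 5.33, 6.12 and 6.28 on the high arrays, and 4.50 to 5.42 on the other arrays with a median of 4.62, where it was detected on 6 of 11. It rose by 1.00 (SE 0.16, limma adjusted p = 0.00289), with overlap from PAE 3X replicates 2 and 3. Srsf5, a splicing factor of the same list, gave 1.01 (SE 0.42, adjusted p 0.18) in the probe of smallest p and 0.10 in its brightest. The third listed gene, Rbm3, had no kept probe.

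Within the 19 arrays outside the high set, heat shock genes did not track Dbp at the threshold. Hsph1 had a slope of -0.08 (SE 0.12), Hspa8 of -0.17 (SE 0.07, adjusted p 0.79), Chordc1 of -0.08 (SE 0.06) and Cirbp of 0.14 (SE 0.07, adjusted p 0.88) per log2 unit of Dbp. No array of the series had a Dbp signal between 8.41 and 10.98, so these slopes cover a lower range than the high arrays. In the 8 arrays of AFFB and PAE 0.1X the slopes were 0.07 for Hsph1, -0.13 for Hspa8 and -0.11 for Chordc1. Over all 633 passing probes, 491 (77.6%) had a slope in those 8 arrays of the same sign as the difference, against 58.6% of the probes that did not pass. Those 8 arrays are not in the comparison, but probes of the same arrays are not independent of each other. The fit of 8 arrays also recovered none of the changed probes on simulated data. These shares are therefore a description with no test and no separate evidence.

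Acot1, an acyl-CoA thioesterase under PPAR alpha control, was 4.90, 4.93, 4.40, 4.56 and 4.42 on the high arrays, against 5.17 to 7.34 on the other arrays with a median of 6.12. The sets did not overlap and it fell by 1.52 (SE 0.28, limma adjusted p = 0.00732), but the probe was detected on only 2 of 5 high arrays, a dimmer second probe gave -0.12, and its paralogs are close in sequence. Its highest values, up to 9.50, were on arrays of AFFB and PAE 0.1X. Plin4, a lipid droplet coat protein gene listed here among adipocyte markers, was detected on 0 of 5 high arrays and 11 of 11 other arrays. It was at least 2.33-fold lower on the high arrays (limma adjusted p = 0.0177).

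Slc25a20, the mitochondrial carnitine carrier, fell by 0.69 (SE 0.13, limma adjusted p = 0.00754). In the list of fatty acid oxidation and PPAR targets, 4 of 13 measured genes were higher and 9 lower, with a median of -0.25. Of all 15308 probes, 7232 were higher and 8076 lower. The 2 genes that passed (15.4%, against 4.14% of all probes) were Acot1 and Slc25a20. Scd2, a stearoyl-CoA desaturase, was 6.15, 5.80, 6.01, 6.13 and 6.16 on the high arrays, against 4.69 to 5.54 on the other arrays. It rose by 0.96 (SE 0.13, adjusted p 0.000681) with no overlap and was the only passing gene of 11 measured (9.09%) in the lipogenesis and sterol list. Nr1h4, the bile acid receptor FXR, picked after its values were seen, was detected on 0 of 5 high and 11 of 11 other arrays and was at least 1.51-fold lower (adjusted p 0.00284).

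Cdkn1a, the cell cycle inhibitor p21 and a known rhythmic gene in mouse liver, was 4.63, 5.26, 4.95, 4.53 and 4.28 on the high arrays, against 5.55 to 6.78 on the other arrays with a median of 6.04. It fell by 1.34 (SE 0.21, limma adjusted p = 0.00272) without overlap, but was detected on only 2 of 5 high arrays. Its other probes gave -0.66 and -0.49, the last detected on 0 of 5 high arrays and 8 of 11 other arrays. Ccnd1, cyclin D1, rose by 0.52 (SE 0.13, adjusted p 0.0332) in 1 probe, with overlap. The brightest Ccnd1 probe gave 0.46 (limma adjusted p 0.087) and the dimmest 0.13 (limma adjusted p 0.75). Ghr, the growth hormone receptor, was 8.97, 8.81, 8.87, 9.03 and 8.69 on the high arrays, against 7.75 to 8.63 on the other arrays, and rose by 0.77 (SE 0.13, adjusted p 0.00364). It did not overlap between the sets, and its 2 further probes gave 0.49 and -0.21.

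Further large rises were of genes of varied function. Slc30a2, the zinc transporter ZnT2, was 6.53, 6.30, 6.34, 6.43 and 6.39 on the high arrays and 4.83 to 5.79 on the other arrays, a difference of 1.10 (SE 0.14, limma adjusted p = 0.000459). Hes6, a basic helix-loop-helix factor, was 5.92, 5.65, 6.01, 6.01 and 5.83 on the high arrays and 4.34 to 5.26 on the other arrays, a difference of 1.07 (SE 0.13, limma adjusted p = 0.000382) that all 3 of its probes shared without overlap. Muc1, an epithelial mucin of ducts and acini, rose in all 4 of its probes, by 0.74, 0.97, 1.20 and 1.64, each without overlap. Ppp1r1b, the phosphatase inhibitor DARPP-32, rose by 1.21 (SE 0.19, adjusted p 0.0028), also without overlap. Dimmer probes of Ppp1r1b gave 0.57 and -0.04 (limma adjusted p 0.016 and 0.90).

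The chemokine gene Cxcl12 rose by 1.26 (SE 0.20, limma adjusted p = 0.00328) and Bex2 by 1.07 (SE 0.18, adjusted p 0.00354), with arrays of the sets overlapping. H1f2, a linker histone, gave the largest rise among named genes taken by their probe of smallest p, 1.42 (SE 0.37, adjusted p 0.0393), yet its within-group differences were 2.51 in PAE 1X, 2.27 in PAE 3X, 0.65 in water and -0.04 in sitagliptin. Akr1c12 (1.12), Gm5643 (1.21), Atp6ap2 (1.01), Stx8 (1.01), Klhl24 (1.09), Rap1gap (1.00), Sult1c2 (1.02) and Coq10b (0.99) completed the 15 largest rises. The sets of these 8 overlapped except for Rap1gap. The brightest probes of Atp6ap2 (-0.16) and Rap1gap (0.10), and 2 further probes of Stx8 (0.30 and -0.05), did not share the rise. A dimmer probe of Klhl24 gave 0.10 (limma adjusted p 0.68). Dimmer probes of Cxcl12 gave 0.39 and 0.05 (limma adjusted p 0.042 and 0.84). Further probes of Atp6ap2 gave 1.01 and 0.87 (limma adjusted p 0.066 and 0.064), and a further probe of Rap1gap gave 0.35 (limma adjusted p 0.24). For Akr1c12, Gm5643, Atp6ap2 and Coq10b the probe was undetected on 2 of the 11 other arrays.

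Further large falls were also mixed. Ppa1, a cytosolic inorganic pyrophosphatase, was 8.99, 9.20, 9.21, 9.04 and 9.11 on the high arrays and 9.80 to 10.58 on the other arrays, a difference of -0.98 (SE 0.12, limma adjusted p = 0.00038) without overlap. Syvn1, the ubiquitin ligase HRD1 that clears misfolded proteins from the endoplasmic reticulum, fell by 1.11 (SE 0.24, adjusted p 0.0167). Its partner Sel1l gave -0.74 (adjusted p 0.0357) in 1 probe, but its brightest probe gave 0.10 and 2 more gave -0.04 and 0.21. Slc16a5, a monocarboxylate transporter family member, fell by 1.11 (SE 0.15, adjusted p 0.000681). Piga, an enzyme of GPI anchor synthesis, fell by 1.30 (SE 0.19, adjusted p 0.00175).

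Rab26os (-1.24), the kallikrein gene Klk1b11 (-0.99), Osgin1 (-0.96) and the glutathione transferase gene Gsta3 (-0.96) were the remaining falls among the 15 largest, all passing and all with overlap. The Osgin1 probe was detected on 3 of 5 high arrays. Klk1b11 belongs to a family of near-identical genes, so its signal may be shared. Sphk2, a sphingosine kinase picked after its values were seen, fell by 0.83 and 0.75 in its 2 probes (adjusted p 0.000176 and 0.00161). The largest difference of all, -3.02 (SE 0.46, adjusted p 0.00189), and the largest rise, 1.92 (SE 0.16, adjusted p 1.11e-05), were of probes with no gene symbol in the annotation used.

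Among other lists, 10 of 13 measured genes of ribosome production in the nucleolus were lower, where 8076 of all 15308 probes were. Their median was -0.25 and 4 passed, all lower, against 2.46% of all probes passing in that direction. These were Nop2 (-0.48), a ribosomal RNA methyltransferase, Ncl (-0.55), nucleolin, Mybbp1a (-0.65) and Polr1a (-0.41), the large subunit of RNA polymerase I. Dimmer probes gave -0.38 and 0.23 for Nop2, -0.36 for Ncl and -0.41 and 0.11 for Mybbp1a, none passing. For Polr1a, dimmer probes gave -0.51 (limma adjusted p 0.0381) and -0.10 (limma adjusted p 0.65). Ribosomal protein genes themselves had 16 of 51 higher, a median of -0.08 and 1 passing, Rpl22 (0.55), while Rps13 passed at -0.58 in a dim probe and gave 0.17 in its brightest. Oxidative phosphorylation genes had 40 of 74 higher, a median of 0.01 and 0 passing, and Ndufb8 passed at -0.54 in a dim probe whose bright counterpart gave -0.15.

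Lists tied to daily rhythm beyond the core clock showed no common direction. Of 12 measured rhythmic output genes, 6 were higher and 6 lower. Of these, 2 passed (16.7%, against 4.14% of all probes), Coq10b (0.43 in its brightest probe) and Cdkn1a. Clock-modifying kinases and ligases had 3 of 6 higher with 0 passing. Detoxification genes known as PAR bZIP targets in mouse liver had 5 of 8 higher, a median of 0.05 and 0 passing. Glucocorticoid targets had 8 of 14 higher, a median of 0.20 and 1 passing (7.14%), which was Cdkn1a. Immediate early genes had 4 of 10 higher with 0 passing.

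In the remaining pathway lists, members of each spread around 0. Endoplasmic reticulum folding and stress genes had 8 of 20 higher, a median of -0.11 and 0 passing by their brightest probes. Trib3, a pseudokinase of the stress response, gave 0.78 (SE 0.32, limma adjusted p 0.18) in its brightest probe. A dimmer Trib3 probe gave 0.69 and was detected on 5 of 5 high arrays, 1 of 11 other arrays and 8 of all 24. That probe was kept by the filter only through the high arrays, so its passing is no support for a rise. Autophagy genes had 7 of 11 higher (median 0.09), glycolysis genes 4 of 9 (median -0.01) and cell cycle genes 8 of 11 (median 0.21), each with 0 passing by the brightest probe.

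Markers of the cell types in pancreas were compared because bulk tissue mixes them, and fewer cells of a type cannot be told apart from less RNA per cell. Acinar enzyme genes, the defining products of the tissue, had a mean log2 signal of 13.83 to 13.88 on the high arrays and 13.64 to 13.86 on the other arrays. Of 28 measured, 20 were higher, with a median of 0.04 and 0 passing. Acinar transcription factor and secretion genes had 7 of 13 higher with a median of 0.01. The tissue label was thus matched by its markers on both sets.

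Islet genes were higher on the high arrays in 21 of 22 cases, where 7232 of all 15308 probes were, with a median of 0.47, but none passed. The list mean was 5.47 to 7.46 on the high arrays and 5.24 to 7.01 on the other arrays, so the sets overlapped across most of their range. Gcg, glucagon, differed by 1.501 (SE 0.54, adjusted p 0.12), Cpe, a prohormone carboxypeptidase, by 1.505 (SE 0.48, adjusted p 0.085) and Ins2, insulin, by 0.79 (SE 0.46, adjusted p 0.35). Of the islet markers, 8 of 30 had no kept probe, Ins1 and Neurod1 among them. The part of islet content in the other differences was not tested beyond the fit with the islet mean.

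Immune and fat cell marker lists had medians below 0. The 6 MHC class II genes were all lower, with a median of -0.44 and 0 passing, and a list mean of 5.71 to 6.10 on the high arrays and 5.81 to 7.03 on the other arrays. Macrophage genes had 2 of 14 higher, where 7232 of all 15308 probes were, and a median of -0.29. The 1 that passed (7.14%, against 4.14% of all probes) was the complement gene C1qa (-0.55, adjusted p 0.0157), detected on 2 of 5 high arrays. The mean of the macrophage list was 5.06 to 5.56 on the high arrays and 5.17 to 6.17 on the other arrays. T and NK cell genes had 1 of 5 higher (median -0.39) and B and plasma cell genes 1 of 2 (median -0.11).

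Adipocyte genes had 2 of 7 higher and a median of -0.34, and the passing one was Plin4 (14.3% of the list, against 4.14% of all probes). Their mean was 4.35 to 4.49 on the high arrays and 4.47 to 5.78 on the other arrays. When the means of the adipocyte and the B and plasma cell lists entered as covariates, 34 probes passed outside the clock genes, so most calls were lost, while heat shock genes still had 3 passing. The adipocyte mean itself included the passing gene Plin4, and the B and plasma cell mean held only 2 genes. Defining adipocyte markers such as Fabp4 and Plin1 had no kept probe.

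Endothelial genes had 7 of 8 higher (median 0.29), collagen and stellate genes 8 of 10 (median 0.18), duct genes 8 of 9 (median 0.05) and erythroid genes 2 of 6 (median -0.10). Of all 15308 probes, 7232 were higher. Among these lists only Muc1, in the duct list, passed (11.1% of that list, against 4.14% of all probes). The part of tissue make-up in the differences was not tested beyond these covariate fits.

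**Figure D5:**
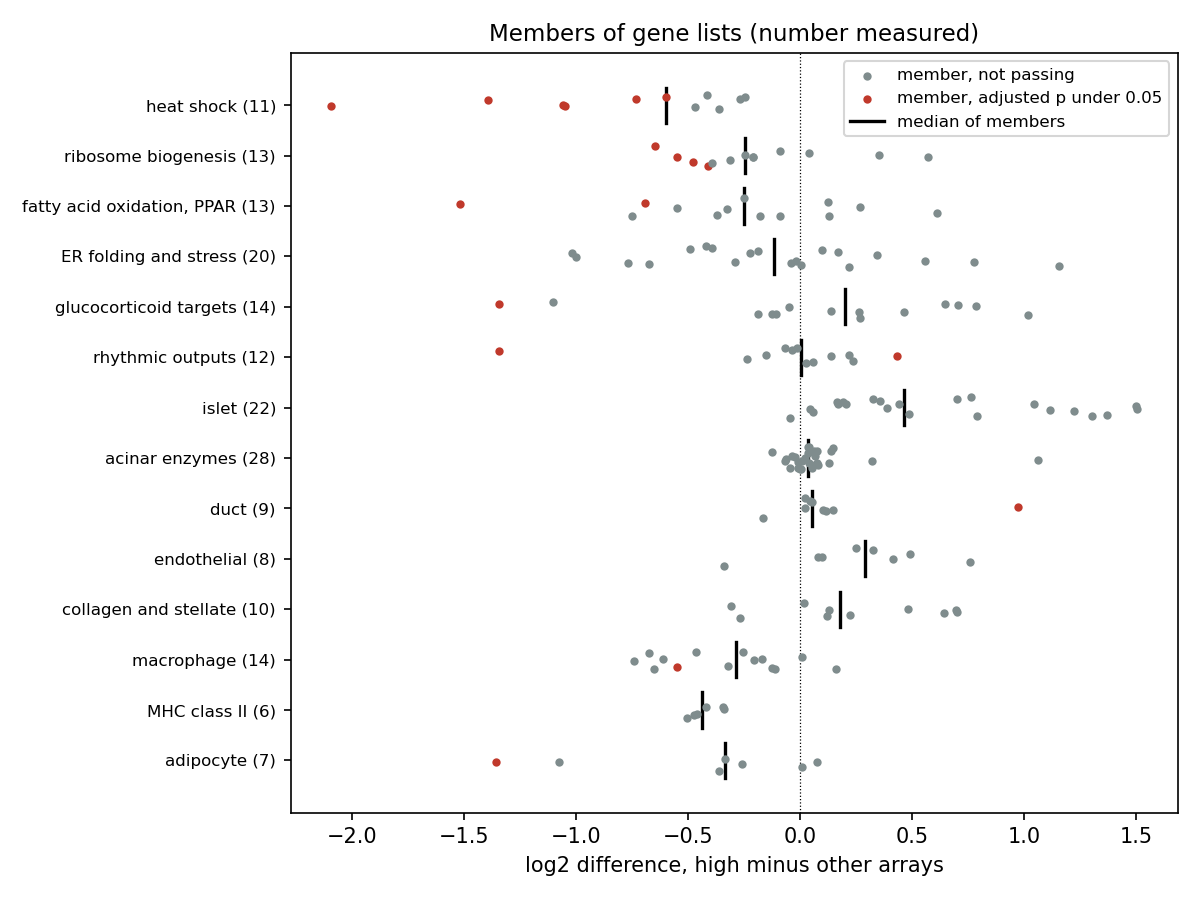
Log2 difference, high minus other arrays, of each measured member (points, by its brightest kept probe) of 14 gene lists, with the median of each list as a black bar. Heat shock genes all lie left of 0 with 6 passing in red, and 21 of 22 islet genes lie right of 0 with none passing.

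The 4 treatment groups did not differ detectably in what set the high arrays apart. A moderated F test of the interaction between set and treatment gave 0 of 15308 probes (0%) at a limma adjusted p under 0.05, while 619 (4.04%) had an unadjusted p under 0.05. PAE 1X, water and sitagliptin had a single high array each, so this test has little reach. For Hsph1 the within-group differences were -2.41 in PAE 1X, -2.29 in PAE 3X, -1.63 in sitagliptin and -1.97 in water, and for Dbp they were 4.65 in PAE 1X, 4.80 in PAE 3X, 4.25 in sitagliptin and 3.71 in water.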

How the data were processed

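Single-colour Illumina arrays measured biotin-labelled pancreas RNA of 24 samples, per the labels. The deposited intensity, an average bead signal for each of 45281 probes, was neither background-subtracted nor normalized, per the file headers and its values. The deposited detection p-value of each probe rested on 936 negative controls, as its steps imply. A table of log2 values was also deposited, and R 3.1.2 and limma 3.22.1 are named in the submitters' processing notes. Those deposited log2 values differed from the ones computed here by at most 0.104.

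Signals were normalized with neqc (limma 3.58.1, R 4.3.3, offset 16, background from the detection p-values). Probes detected at p under 0.05 on at least 4 of 24 arrays were kept. These were 15328, of which 13086 had 1 symbol for 9164 genes, 8 had several and 2234 had none, and probes of the last 2 kinds were not named. The filter could be met by the high arrays alone. The annotation symbols served as given. Differences between high and other arrays came from lmFit and eBayes with treatment group as a covariate, two-sided, with Benjamini-Hochberg adjustment over all kept probes. The 20 clock gene probes were then set apart and received no p. Slopes on Dbp and the interaction used the same tools. The number of arrays limits the precision.

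Clock genes are given by their brightest probe and other named genes by the probe of smallest p. List members enter by their brightest probe. Named genes are the clock genes, the 15 largest passing rises and falls, up to 4 passing members of each list, all heat shock and cold-inducible genes, and the 10 smallest p of each slope. The members, lists and tests were chosen with earlier results of these data known. Alternatives changed the normalization, filter, variance model, covariates or arrays, and the fit was tested on simulated data. The design implies no pairing: arrays sharing a replicate number had a median correlation of 0.03 in their deviations from group means, from -0.55 to 0.63 over 60 pairs.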

Additional observations from a re-analysis of the deposited data

Results flagged for a closer look

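Of 84 named genes, 7 had a single high array that stood away from the other 4 by Dixon's criterion, and chance alone marks about 1 group in 20. PAE 3X replicate 2 was low for Irf1, an interferon response factor, at a log2 signal of 5.367, and high for Trib3 at 5.993. Water replicate 4 was low for Klhl24 at 7.024. Sitagliptin replicate 4 was low for Lpar6, a lysophosphatidic acid receptor, at 5.328, and high for Rora at 7.677. PAE 1X replicate 4 was low for Ndufb8 at 4.30, and PAE 3X replicate 3 was high for Rap1gap at 7.479. No array was marked for Dbp or for a heat shock gene.

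Of 84 named genes, 3 had opposite directions between treatment groups. There the high arrays lay above all others of their own group in 1 or more groups and below all others in another. PAE 1X, water and sitagliptin had a single high array each, which can easily lie beyond so few others by chance. The share of genes expected by chance was not computed, so these 3 are no evidence of a treatment difference. The difference between treatments was not tested for Cry2 and Rora, and Spata2l did not pass the F test of the interaction. Cry2, with 0.177 over all groups, was higher on the high arrays of PAE 1X, PAE 3X and water and lower on that of sitagliptin. Rora, with 0.5797 over all groups, was higher in PAE 1X, PAE 3X and sitagliptin and lower in water. Spata2l, with -0.1131 over all groups, was higher in PAE 1X and lower in PAE 3X.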

How the results depend on the processing

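The count of 633 passing probes outside the clock genes moved by more than 1.5 times under several settings. It was 2067 with median scaling, which shifted the median of all probes to -0.13 and left 4.31% of calls higher, against 40.4% as reported. It was 1438 with array weights, 1648 with the detected share as a covariate, 994 without the 2 arrays far on the first component and 374 without a probe filter. It was 34 with adipocyte and B cell means as covariates and 129 with a replicate block, although the numbers do not pair the samples. Chosen after seeing the data, the 95th percentile of signal as a covariate gave 9, the islet mean 162 and adjustment without the clock probes 626. Leaving out 1 array gave 138 to 981: 138 without PAE 1X replicate 4, 330 without sitagliptin replicate 4, 370, 405, 302 and 305 without PAE 3X replicates 1, 2, 3 and 4, and 981 without PAE 1X replicate 3. The cause of these moves was not tested. Of the 15 largest rises and 15 largest falls, all 30 kept their direction both under median scaling and with the 95th percentile of signal. With median scaling 11 rises and 15 falls passed, while 0 rises and 3 falls passed with the 95th percentile of signal.

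For the slope on Dbp over 19 arrays, 1 probe passed among those detected on all arrays, 2 with a replicate block, and 0 to 8 when 1 array was left out (8 without sitagliptin replicate 3, 4 without AFFB replicate 1). Over 8 arrays the count was 0 throughout, in a fit that recovered none of the changed probes on simulated data. For the interaction it was 0 to 2, with 2 without PAE 3X replicate 1. Irf1 turned to -0.064 with median scaling and -0.00387 with log2 Dbp in place of the sets. S100a11 turned to -0.27 and -0.092, and Mat1a to -0.038 with median scaling, none passing.

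Dim probes near the detection limit, 4 treatment groups with 1 or 2 high arrays each, and brightness that differed between the sets limit these results.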

Other observations

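With all 19 arrays outside the high set, 0 probes passed the slope on Dbp. Leaving out 1 array at a time gave 0 to 8, and the 8 came without sitagliptin replicate 3. That run is described because its count was the largest. PAE 1X replicate 2 and AFFB replicate 2, which lay farther out on the first component, stayed in it. In that run Mt1, a metallothionein that binds zinc, had a slope of 0.92 (SE 0.11, limma adjusted p = 0.00143) per log2 unit of Dbp. With all 19 arrays the Mt1 slope was 0.72 (limma adjusted p 0.51). Negative slopes in the run without sitagliptin replicate 3 came from 5 further genes. Creld2, an endoplasmic reticulum stress protein, had -0.91 and -0.92 in its 2 probes, and the endoplasmic reticulum chaperones Pdia4, Hsp90b1 and Hyou1 had -0.95, -0.64 and -0.44. Tubb5, a beta tubulin, had -0.43 and also the smallest adjusted p, 0.0803, with sitagliptin replicate 3 included. The remaining probe had no symbol. On the high arrays Mt1 was 13.63, 14.21, 13.43, 13.53 and 14.16, against 11.31 to 14.45 on the other arrays with a median of 13.27 (difference 1.02, SE 0.44, adjusted p 0.21).

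Each array's label carries a number whose meaning is not stated. The high arrays were numbered 34, 55, 70, 69 and 33, in the order PAE 1X replicate 4, PAE 3X replicates 2 and 3, water replicate 4 and sitagliptin replicate 4. Pdcd4, a translation inhibitor, and Ivns1abp, a kelch protein, picked after their values were seen, differed by 0.72 (SE 0.12, limma adjusted p = 0.00323) and -0.92 (SE 0.13, adjusted p 0.000997), each without overlap. Further probes of Pdcd4 gave 0.59 (adjusted p 0.0151), 0.56 (adjusted p 0.0631) and 0.08 (adjusted p 0.89), all with overlap. Further probes of Ivns1abp gave 0.36 and -0.05.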
